A study of Mus musculus with 16 samples.

Results

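The sarcoplasmic reticulum stores and releases the calcium that drives each heartbeat, and 10 genes of this system were followed across ventricle libraries from 16 mice. They were chosen by symbol, as Atp2a2, Pln, Sln, Ryr2, Casq2, Slc8a1, Cacna1c, Trdn, Jph2 and Hrc, and all 10 were found once among the 22372 genes of the normalized count table. The mice were C57BL/6J, male according to the methods of the study, and fell into 4 groups of 4. The labels give an age of 10 to 12 weeks at the start, while the methods give a slightly narrower range. Sham-Veh mice had a thoracotomy without constriction and received vehicle, and Sham-THZ1 mice had the same operation and received THZ1. TAC-Veh and TAC-THZ1 mice had transverse aortic constriction (TAC), a suture around the aortic arch that raises the pressure the left ventricle pumps against, with vehicle or THZ1. THZ1, a covalent inhibitor of the transcriptional kinase CDK7 that also acts on its relatives, was given intraperitoneally from day 1 to day 60 after surgery. The labels give 10 mg/kg per dose and 2 doses a day, while the methods describe daily injections of the same total daily amount. Each library came from a small piece of ventricle of 1 mouse, so the values are those of all cell types of the tissue together, and fewer cells of a type cannot be told apart from less RNA per cell.

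In a cardiomyocyte, depolarization opens L-type calcium channels, whose pore is encoded by Cacna1c, and the entering calcium opens ryanodine receptors (Ryr2) that release the store. The contact between both membranes is held by junctophilin 2 (Jph2), and triadin (Trdn), calsequestrin 2 (Casq2) and the histidine rich calcium binding protein (Hrc) sit at or in the lumen side of the release channel. The muscle relaxes as the pump SERCA2 (Atp2a2) returns calcium to the store, under the brake of the small membrane proteins phospholamban (Pln) and sarcolipin (Sln), while the sodium-calcium exchanger (Slc8a1) carries calcium out of the cell. Low SERCA2 and a raised ratio of phospholamban to SERCA2 are textbook features of the failing ventricle.

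Recovered read totals were 21.4 to 35.8 M reads per library, with a median of 28.2 M. Mitochondrial genes took 33.2 to 44.7% of them. The labelled tissue could be checked by markers: the summed normalized counts of 9 cardiomyocyte markers reached 585936 to 1.10e+06 per library, although 1 of the 9, Tnnc1, was listed at 0 throughout. The 5 atrial markers summed to 187 to 464 and the 6 skeletal muscle markers to 26.7 to 62.2 normalized counts, with Myl7 at 0 to 6.44, Bmp10 at 0 to 0.864 and Myh4 at 0 to 1.77 normalized counts. The highest atrial markers were Stard10 at 125 to 417 and Myl4 at 25.1 to 81.1 normalized counts. Among the skeletal muscle markers the highest were Tnnt3 at 6.68 to 32.9 and Mylpf at 9.41 to 28.7. A gene was called where limma, fitted on log2(normalized count + 1) over all libraries, gave an adjusted p under 0.05, without a fold threshold. Fold changes below are on that scale, with standard errors (SE), and the adjustment was that of Benjamini and Hochberg over 13331 genes.

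The pump and its brake were the most abundant of the 10 transcripts. Per kilobase of annotated exon in Sham-Veh, Pln stood at 63202 ± 3102 normalized counts (SD, n = 4) and Atp2a2 at 52807 ± 3433. Hrc followed at 12719 ± 177 and Casq2 at 8693 ± 455. Then came Jph2 at 2364 ± 203, Ryr2 at 1801 ± 87.9 and Trdn at 1765 ± 51.0, of which Ryr2 and Trdn differed by less than their spread. The lowest of the genes with reads in every library were Slc8a1 at 1224 ± 117 and Cacna1c at 685 ± 47.0.

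Atp2a2 (chr5:122903531-122952183, minus strand, NCBIM37/mm9, as for all positions here) fell with TAC and was partly higher again with THZ1. Normalized counts in Sham-Veh were 271781, 312899, 300564 and 313270, and in Sham-THZ1 326427, 326085, 313513 and 293263. The TAC-Veh libraries had 96390, 92706, 141695 and 173886, and the TAC-THZ1 libraries 165354, 209832, 158717 and 184082. All 8 TAC libraries lay below all 8 sham libraries, and the TAC-Veh and TAC-THZ1 ranges overlapped, because replicate 4 of TAC-Veh was higher than 2 of the TAC-THZ1 libraries. The TAC-Veh mean was 42.1% of the Sham-Veh mean, and the TAC-THZ1 mean 59.9%. On the log2 scale the TAC change was -1.30 (SE 0.18, adjusted p = 2.8e-05, limma), and THZ1 in TAC added 0.55 (SE 0.18, adjusted p = 0.0274). The latter call held in 21 of 30 alternative fits, and the change was 0.26 after quantile normalization (adjusted p = 0.258) and 0.19 when scaled to cardiomyocyte markers (adjusted p = 0.256). With THZ1 in both arms, TAC-THZ1 remained below Sham-THZ1 by a log2 change of -0.82 (SE 0.18, adjusted p = 0.00469). Reads were counted per gene, so the SERCA2a and SERCA2b transcripts of this locus were not separated.

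Phospholamban and sarcolipin bind the pump, and their open reading frames are shown because the values of these short inhibitors frame the ratio given below. The Pln frame codes for 52 amino acids within 159 bases at chr10:53063670-53063828, plus strand, and the Sln frame for 31 amino acids within 96 bases at chr9:53701280-53701375, plus strand. Capitals mark the start and stop codons in the annotated transcripts.
Pln: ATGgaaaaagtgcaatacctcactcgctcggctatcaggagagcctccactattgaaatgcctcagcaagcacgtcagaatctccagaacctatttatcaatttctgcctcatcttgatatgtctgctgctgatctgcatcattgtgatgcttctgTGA
Sln: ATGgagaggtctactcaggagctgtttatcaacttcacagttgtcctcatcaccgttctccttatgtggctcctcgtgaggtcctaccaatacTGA

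Pln (chr10:53057492-53065805) also fell with TAC, by less than Atp2a2, and was closer to sham with THZ1. Its normalized counts were 145627, 163293, 158422 and 159620 in Sham-Veh and 151762, 153400, 156318 and 151599 in Sham-THZ1. In TAC-Veh they were 83448, 65741, 106287 and 93811, and in TAC-THZ1 137665, 159503, 114298 and 138340. Every TAC-Veh library was below every library of the other 3 groups, while TAC-THZ1 replicate 2 reached the sham range. As a share of the Sham-Veh mean, TAC-Veh stood at 55.7% and TAC-THZ1 at 87.7%. The log2 change was -0.86 with TAC (SE 0.14, adjusted p = 0.000106) and 0.67 with THZ1 in TAC (SE 0.14, adjusted p = 0.00219). Between TAC-THZ1 and Sham-THZ1 the log2 difference was -0.17 (95% interval -0.46 to 0.12, adjusted p = 0.391). The genes Gm10942 and Gm9766 lie across Pln on the other strand, and the counting was strand-specific.

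Sln, the inhibitor that mouse hearts make mainly in the atria, was at the limit of detection. Its 16 libraries held 8 reads in all, with 4 in Sham-THZ1 replicate 4, 1 each in Sham-Veh replicate 4, TAC-Veh replicates 2 and 4 and TAC-THZ1 replicate 4, and 0 in the other 11. A count of 0 allows up to 3 reads, or 2.15 to 4.01 normalized counts depending on the library, for counting error only. No group could be told from another at this depth, Sln did not pass the filter on low values, and no ratio to Atp2a2 was formed.

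**Figure D1:**
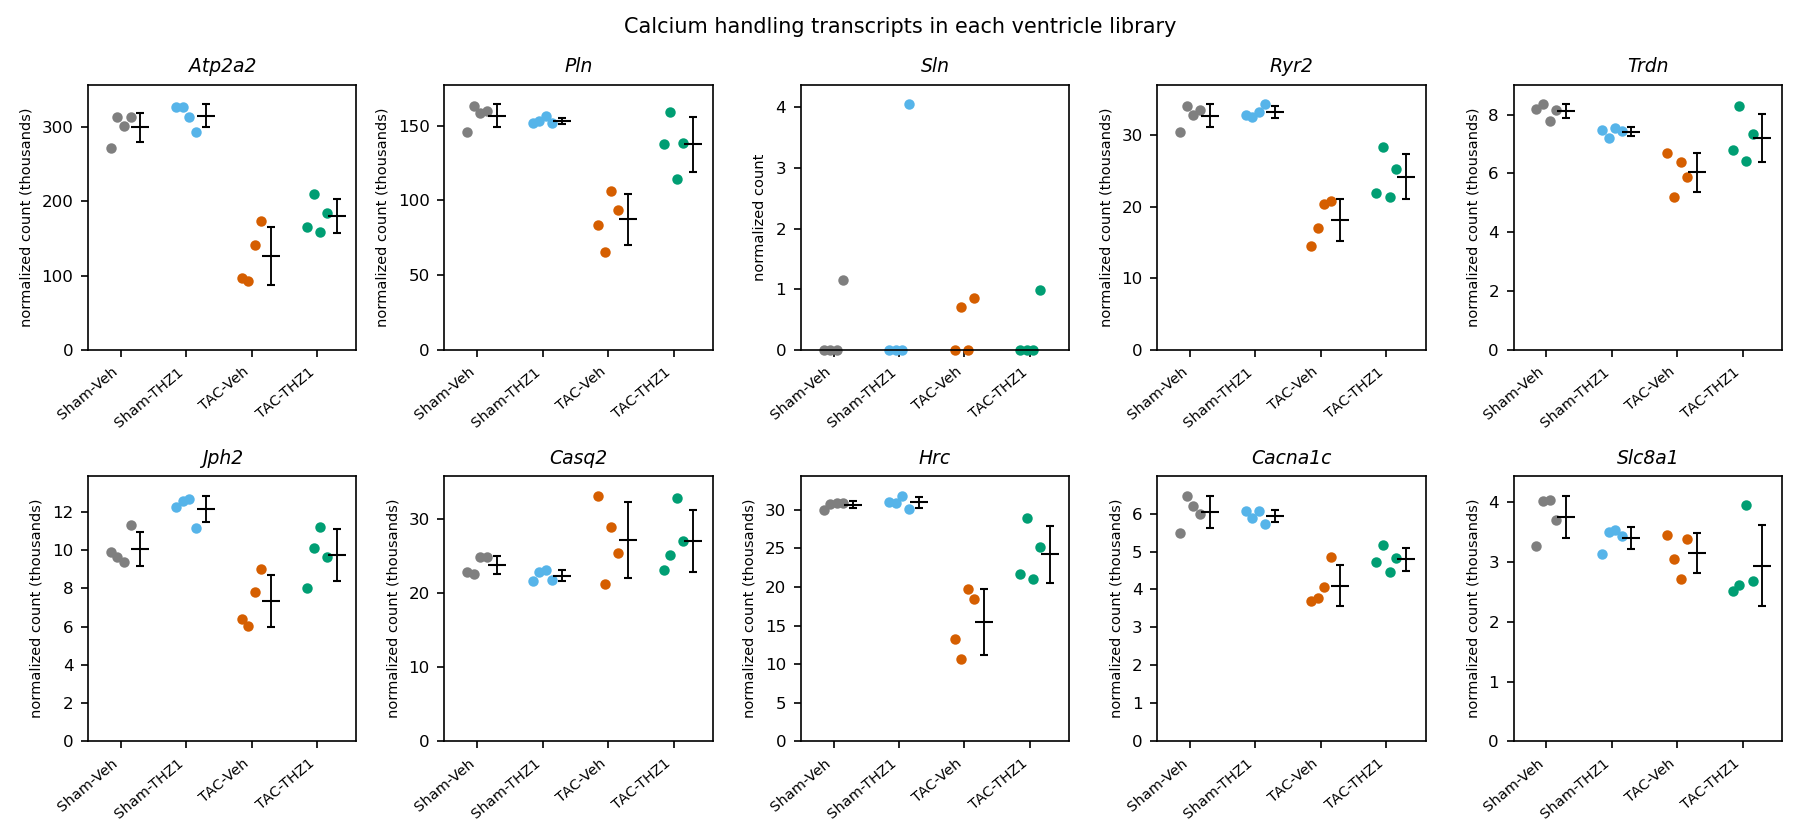
Normalized counts (vertical axes, scaled as marked on each axis and starting at 0) of the 10 genes in the 16 libraries; each point is 1 mouse, and the black mark and bar beside each group are its mean and SD (n = 4; not drawn for Sln). Atp2a2 in TAC-Veh lies between 92706 and 173886 against 271781 to 313270 in Sham-Veh, whereas Casq2 in TAC-Veh spans 21171 to 33122 around its sham values.

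The ratio of Pln to Atp2a2 was taken within each library, so it does not depend on how libraries were scaled. The ratio of normalized counts was 0.536, 0.522, 0.527 and 0.510 in Sham-Veh and 0.465, 0.470, 0.499 and 0.517 in Sham-THZ1. In TAC-Veh it was 0.866, 0.709, 0.7501 and 0.539, and in TAC-THZ1 0.833, 0.760, 0.720 and 0.752. Both TAC groups lay wholly above both sham groups, with TAC-Veh replicate 4 at 0.539 only just above the highest Sham-Veh value of 0.536. Sham-Veh averaged 0.524 ± 0.011 and Sham-THZ1 0.488 ± 0.024, against 0.716 ± 0.135 for TAC-Veh and 0.766 ± 0.048 for TAC-THZ1 (SD, n = 4 each). TAC raised the ratio 1.35-fold under vehicle, a log2 difference of 0.43, and 1.57-fold under THZ1, a log2 difference of 0.65. Both gave p = 0.0286 in an exact two-sided permutation test, the smallest p that 4 against 4 allows, and an adjusted p = 0.0457 over 8 tests of ratios. Without any 1 of the Sham-Veh libraries the vehicle difference was 0.42 to 0.44 and the exact permutation p = 0.0571. THZ1 did not bring a detectable change within TAC, with a log2 difference of 0.12 (exact permutation p = 0.543, adjusted p = 0.543), since Atp2a2 and Pln were both higher in TAC-THZ1 than in TAC-Veh. In sham the log2 difference was -0.10 (exact permutation p = 0.0571, adjusted p = 0.0762). The THZ1 effect on the log2 ratio was higher in TAC than in sham by 0.22, which was not tested.

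**Figure D2:**
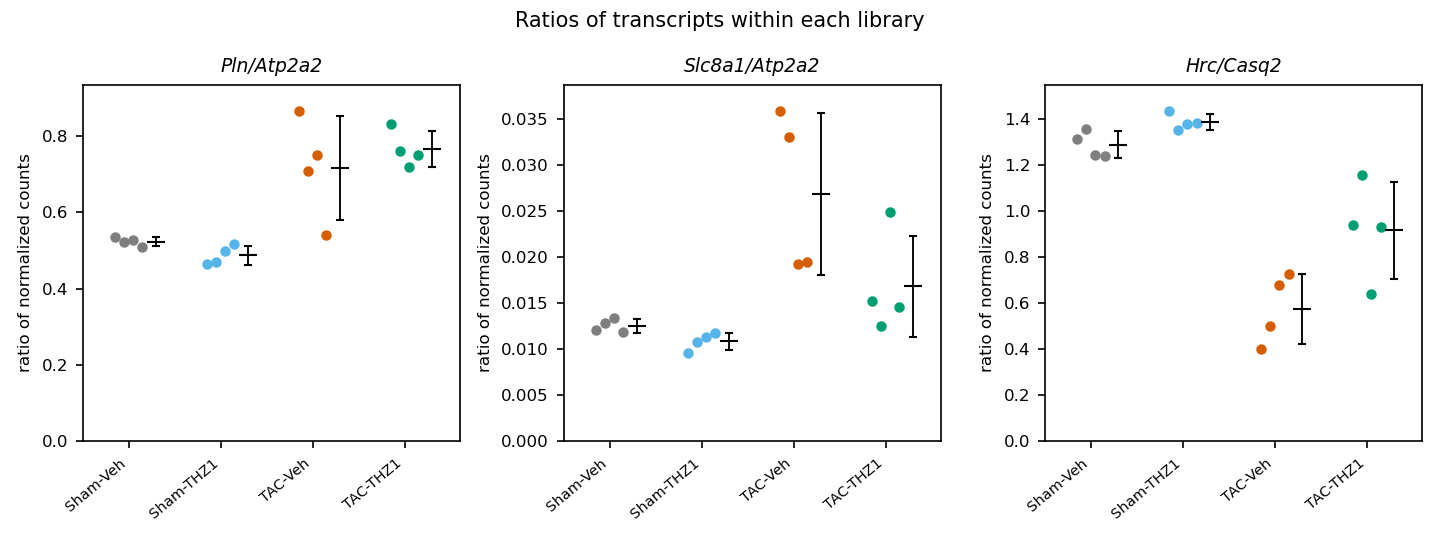
Ratios of normalized counts within each library (vertical axes, starting at 0) for Pln to Atp2a2, Slc8a1 to Atp2a2 and Hrc to Casq2; points are mice, and black marks and bars are the mean and SD of a group (n = 4). Pln to Atp2a2 is 0.716 in TAC-Veh and 0.766 in TAC-THZ1 on average against 0.524 in Sham-Veh, and Hrc to Casq2 is 0.578 in TAC-Veh against 1.29 in Sham-Veh.

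Ryr2, the release channel (chr13:11645370-12199212), followed the pump at a smaller size. Normalized counts were 30493, 34130, 32887 and 33555 in Sham-Veh, 14598, 16997, 20473 and 20785 in TAC-Veh, and 21933, 28315, 21447 and 25290 in TAC-THZ1. The 3 groups did not overlap, and TAC-THZ1 lay between the other 2, at 74.0% of the Sham-Veh mean against 55.6% in TAC-Veh. The log2 change was -0.86 with TAC (SE 0.11, adjusted p = 1.37e-05) and 0.42 with THZ1 in TAC (SE 0.11, adjusted p = 0.00899). TAC-THZ1 stayed below Sham-THZ1 by a log2 change of -0.46 (SE 0.11, adjusted p = 0.00722), the Sham-THZ1 libraries spanning 32505 to 34361.

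Trdn, which anchors calsequestrin to the release channel (chr10:32803289-33196515), changed less. The Sham-Veh libraries had 8185, 8356, 7797 and 8154 normalized counts of Trdn, and the Sham-THZ1 libraries 7495, 7199, 7545 and 7446. Under TAC the vehicle libraries had 6713, 5193, 6377 and 5888 and the THZ1 libraries 6796, 8289, 6412 and 7340. Every TAC-Veh library was below every sham library, and the TAC-THZ1 libraries reached from the TAC-Veh range into the sham range. The TAC change was -0.43 (SE 0.08, adjusted p = 0.000477) and the change with THZ1 in TAC 0.25 (SE 0.08, adjusted p = 0.0275), with overlapping TAC groups. The 4 Sham-THZ1 libraries, at 7199 to 7545, lay below the 4 Sham-Veh libraries, at 7797 to 8356, but the log2 change of -0.13 did not pass the test (95% interval -0.30 to 0.04, adjusted p = 0.816).

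Jph2, the tether of the dyad (chr2:163161978-163223729), was lowest in TAC-Veh. The Sham-Veh libraries had 9881, 9651, 9386 and 11323 normalized counts of Jph2, and the Sham-THZ1 libraries 12241, 12575, 12647 and 11150. Under TAC the vehicle libraries had 6418, 6055, 7810 and 9007 and the THZ1 libraries 8003, 10133, 11218 and 9630. No TAC-Veh library reached the Sham-Veh range, while replicates 2, 3 and 4 of TAC-THZ1 lay within it. It fell with TAC by 0.47 on the log2 scale (SE 0.12, adjusted p = 0.00389) and was higher with THZ1 in TAC by 0.42 (SE 0.12, adjusted p = 0.0139). The TAC-THZ1 mean was 96.9% of the Sham-Veh mean, but against Sham-THZ1 the log2 difference was -0.33 (SE 0.12, adjusted p = 0.0526), called lower in 9 of 30 alternative fits. In sham mice Jph2 had the largest positive THZ1 value of the 9 genes, 0.27, with a 95% interval of 0.03 to 0.52 and an adjusted p = 0.692.

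Casq2 and Hrc, both calcium binding proteins of the store, had different values with TAC. The 250 bases before the RefSeq transcription start of each are shown because both proteins sit in the same lumen while only Hrc passed the test with TAC, and capitals mark matches to the E-box letters CANNTG. The Hrc window lies at chr7:52590389-52590638 and the Casq2 window at chr3:101890088-101890337, both on the plus strand; the sequences come from a RefSeq table of build GRCm38.p6 and were placed on NCBIM37 by exact match.
Hrc: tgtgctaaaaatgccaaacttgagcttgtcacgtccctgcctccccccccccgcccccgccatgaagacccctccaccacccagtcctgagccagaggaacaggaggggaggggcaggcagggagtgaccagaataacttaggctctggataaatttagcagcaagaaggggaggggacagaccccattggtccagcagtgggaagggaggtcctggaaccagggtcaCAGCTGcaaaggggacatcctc
Casq2: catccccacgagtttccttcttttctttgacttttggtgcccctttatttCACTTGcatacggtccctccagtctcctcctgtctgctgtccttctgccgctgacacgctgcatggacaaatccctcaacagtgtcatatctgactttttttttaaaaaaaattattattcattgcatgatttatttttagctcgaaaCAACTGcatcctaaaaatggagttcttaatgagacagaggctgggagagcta

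Of the 10 genes 7 had such a window (Pln, Ryr2, Casq2, Slc8a1, Cacna1c, Jph2 and Hrc), and the letters CANNTG occurred in each of the 7, with 2 matches in Casq2 and Ryr2 and 1 in each window of the others. The same letters occurred before 66.0% of 27025 gene symbols. GATAA, searched on both strands, was found for Pln (2 matches), Slc8a1 (2) and Hrc (1), against 23.0% of all symbols. TATAAA was found for Pln alone, against 13.0% of all symbols. GGGCGG was found for Jph2, Hrc and, depending on the start, Cacna1c, against 32.9%. Of the CArG box of serum response factor, only a single fixed form was searched. That form was found for none of the 7, against 0.0555% of all symbols. Other forms of this box were not searched, so its absence from the 7 windows is not shown. The matches given here are matches of letters within a short window and not binding sites.

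Casq2 (chr3:101890338-101950437) had normalized counts of 22800, 22616, 24829 and 24888 in Sham-Veh, 33122, 21171, 28923 and 25367 in TAC-Veh, and 23079, 25067, 32874 and 26970 in TAC-THZ1. The Sham-THZ1 libraries had 21615, 22800, 23066 and 21777. The TAC-Veh libraries spread on both sides of the sham values. Its log2 change with TAC was 0.17 (95% interval -0.08 to 0.43, adjusted p = 0.259), and with THZ1 in TAC it was -0.0011 (SE 0.12, adjusted p = 0.996). Hrc (chr7:52590660-52594343) had 30024, 30737, 30934 and 30912 in Sham-Veh, 13302, 10620, 19700 and 18439 in TAC-Veh, and 21693, 29004, 21034 and 25192 in TAC-THZ1. The Sham-THZ1 libraries had 31064, 30905, 31833 and 30143. Sham-Veh, TAC-THZ1 and TAC-Veh did not overlap, with TAC-THZ1 in the middle. Hrc fell with TAC by 1.03 on the log2 scale (SE 0.15, adjusted p = 5.37e-05) and was higher with THZ1 in TAC by 0.67 (SE 0.15, adjusted p = 0.00365). The ratio of Hrc to Casq2 averaged 1.29 ± 0.057 for Sham-Veh and 1.39 ± 0.034 for Sham-THZ1, against 0.578 ± 0.152 for TAC-Veh and 0.918 ± 0.212 for TAC-THZ1 (SD, n = 4 each). This ratio was chosen after the values were seen and is given without a test.

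At the sarcolemma, Cacna1c (chr6:118542314-119146249) was lower in both TAC groups than in both sham groups. The Sham-Veh libraries had 5491, 6470, 6203 and 5997 normalized counts of Cacna1c, and the Sham-THZ1 libraries 6063, 5895, 6058 and 5723. Under TAC the vehicle libraries had 3703, 3775, 4066 and 4862 and the THZ1 libraries 4731, 5163, 4454 and 4816. The sham and TAC libraries did not overlap, and the TAC groups overlapped each other. It fell with TAC by 0.56 on the log2 scale (SE 0.08, adjusted p = 3.7e-05), was higher with THZ1 in TAC by 0.23 (SE 0.08, adjusted p = 0.0377), and TAC-THZ1 stayed below Sham-THZ1 by -0.31 (SE 0.08, adjusted p = 0.0115). The exchanger Slc8a1 (chr17:81785359-82048947) had overlapping groups throughout. The Sham-Veh libraries had 3269, 4016, 4033 and 3705 normalized counts of Slc8a1, and the Sham-THZ1 libraries 3139, 3498, 3537 and 3438. Under TAC the vehicle libraries had 3453, 3058, 2721 and 3382 and the THZ1 libraries 2515, 2621, 3951 and 2688. Replicate 3 of TAC-THZ1 was well above the other 3 libraries of its group. Its log2 change was -0.25 with TAC (95% interval -0.51 to 0.00, adjusted p = 0.0968) and -0.12 with THZ1 in TAC (95% interval -0.37 to 0.14, adjusted p = 0.488). Calcium leaves the cytosol through the pump or the exchanger. The ratio of Slc8a1 to Atp2a2 averaged 0.0125 ± 0.00074 in Sham-Veh and 0.0269 ± 0.00878 in TAC-Veh (SD, n = 4 each). By the difference of mean log2 ratios, 1.04, it rose 2.06-fold with TAC under vehicle (exact permutation p = 0.0286, adjusted p = 0.0457). It was also higher in TAC-THZ1 than in Sham-THZ1, by 0.58 on the log2 scale, and lower in Sham-THZ1 than in Sham-Veh, at -0.21, both with exact permutation p = 0.0286 and adjusted p = 0.0457. The last of these calls was lost without any 1 Sham-Veh library or without Sham-THZ1 replicate 1 (log2 difference -0.24 to -0.16), and that of TAC-THZ1 against Sham-THZ1 without any 1 Sham-THZ1 library (0.53 to 0.62), each with exact permutation p = 0.0571. Within TAC the THZ1 difference of -0.67 on the log2 scale did not pass (exact permutation p = 0.114, adjusted p = 0.131).

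Counted together, 7 of the 9 genes tested fell with TAC and none rose (Atp2a2, Hrc, Pln, Ryr2, Cacna1c, Jph2 and Trdn), beside 45.0% of all genes tested that were called in this contrast and 23.6% called lower. The median log2 change was -0.56 for the 9 genes and -0.0030 for all genes. Of the 7 calls, 6 held at an adjusted p under 0.05 in each of 30 alternative fits, while requiring an absolute log2 change of at least 1 as well left 2, Atp2a2 and Hrc. Jph2 was lost when libraries were scaled to 8 cardiomyocyte markers (adjusted p = 0.109), where Casq2 was called higher (adjusted p = 0.00151). That scaling moved the median of all genes by 0.24 for TAC and -0.34 for THZ1 in TAC. For TAC under THZ1 the shift was -0.11, and for the difference of THZ1 effects -0.33. In relation to the shift for TAC, Casq2 changed by 0.18 and Atp2a2 by -1.29. The scaling divides each library by its own factor, so values taken in relation to the shift nearly repeat the fit without it and are no further test. Marker genes moved as well. The summed cardiomyocyte markers were 852984 to 889328 in Sham-Veh and 585936 to 874139 in TAC-Veh, with 2 of 8 tested lower. The 6 fibroblast markers summed to 20596 to 23138 and 56587 to 120697, with 4 of 6 higher, and the 5 macrophage markers to 5911 to 7287 and 9336 to 11666, with 4 of 5 higher. Their part in the result was not tested.

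The same 7 genes were called higher with THZ1 in TAC and none lower, beside 29.4% of all genes called and 15.1% called higher, with a median log2 change of 0.42 for the 9 genes and 0.01 for all genes; scaled to cardiomyocyte markers, Cacna1c and Trdn changed sign. This comparison shares the TAC-Veh libraries with the one before, so the overlap of both lists is not independent of them. A fit of the TAC libraries alone called none of the 9 by limma (7 at an unadjusted p under 0.05), beside 10.5% of all genes called in that fit. Adjusted p ran from 0.057 for Hrc and Pln to 0.160 for Atp2a2 among those 7, and was 0.626 for Slc8a1 and 0.997 for Casq2. After quantile normalization 5 of the 9 were called, without Atp2a2 and Ryr2, the latter at 0.28 (adjusted p = 0.0817). Without TAC-Veh replicate 2 the count was 3, and without TAC-THZ1 replicate 2 or replicate 4 it was 4. Under the cardiomyocyte marker scaling 4 genes were called, with Pln and Hrc higher and Casq2 and Slc8a1 lower, beside 2.58% of all genes higher and 49.8% lower. Cacna1c stood at -0.13 and Trdn at -0.10. Taking off the shift of all genes nearly returns the values of the fit without this scaling, so it does not test the change of sign. In relation to that shift, Cacna1c was at 0.21 and Trdn at 0.24. On that footing Pln was at 0.65, Hrc at 0.66, Casq2 at -0.017 and Slc8a1 at -0.13. The cardiomyocyte marker sums were 898889 to 1.10e+06 in TAC-THZ1, above every TAC-Veh library, with 4 of 8 markers higher, and the fibroblast sums were 24155 to 35975, with 4 of 6 lower. Their part in the result was not tested. The Pln to Atp2a2 and Hrc to Casq2 ratios are free of this scaling.

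**Figure D3:**
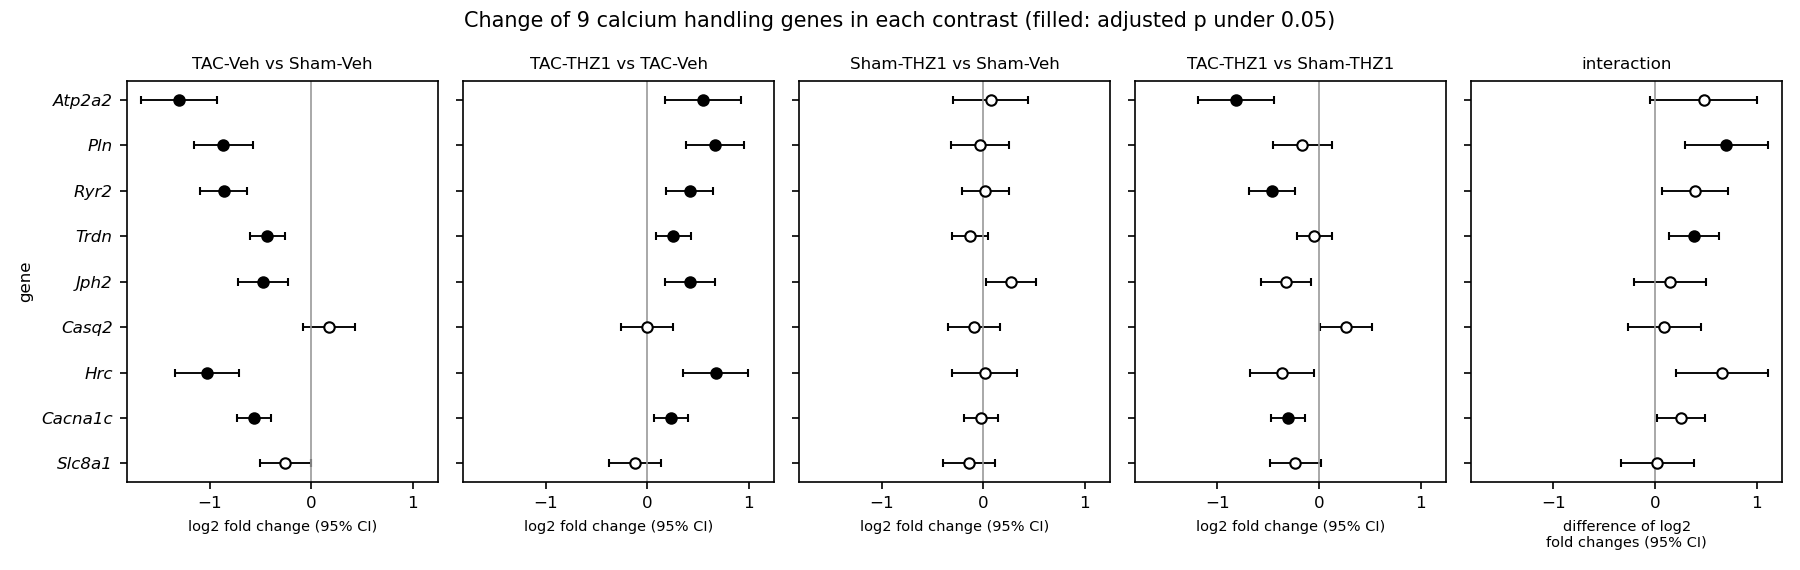
Log2 fold changes of the 9 genes tested (horizontal axes, points with 95% intervals from limma) in 4 contrasts and their interaction, the difference between the THZ1 effects in TAC and in sham; filled points have an adjusted p under 0.05. With TAC 7 genes are lower, with THZ1 in TAC the same 7 are higher (2 of them, Cacna1c and Trdn, change sign when scaled to cardiomyocyte markers), and in sham no gene is called.

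In sham mice THZ1 gave no call among the 9 genes with limma, 1 of them (Jph2) at an unadjusted p under 0.05, and none with edgeR or DESeq2, beside 0.0675% of all genes called. The intervals still allow changes of some size, such as -0.30 to 0.45 for Atp2a2 and -0.32 to 0.26 for Pln. A fit of the sham libraries alone, which vary less than the TAC libraries, called Jph2 higher (adjusted p = 0.0193) and Trdn lower (adjusted p = 0.0456), beside 3.49% of all genes called in that fit. Between TAC-THZ1 and Sham-THZ1, 3 of the 9 were called, Atp2a2, Ryr2 and Cacna1c, all lower, beside 24.2% of all genes. Without TAC-Veh replicate 2 or without TAC-THZ1 replicate 3 that count was 5. Casq2, whose groups did not overlap, had 0.26 (SE 0.12, adjusted p = 0.12). Hrc, whose groups did not overlap either, had -0.37 (95% interval -0.68 to -0.05, adjusted p = 0.085).

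The THZ1 effect differed between TAC and sham for 2 of the 9 genes, Pln by 0.70 (SE 0.19, adjusted p = 0.0327) and Trdn by 0.38 (SE 0.12, adjusted p = 0.0445), beside 10.0% of all genes. Hrc was close to them at 0.66 (SE 0.21, adjusted p = 0.0578), and the interval of Atp2a2 ran from -0.05 to 1.01 (adjusted p = 0.23). These 2 calls rest on little. None of the 9 was called by limma without Sham-Veh replicates 2, 3 or 4, without any 1 of the 4 Sham-THZ1 libraries, or without TAC-THZ1 replicates 2 or 4. With a count of 0 to 4 over all 16 such fits, 1 was called without Sham-Veh replicate 1 or TAC-Veh replicate 2, and 4 without TAC-Veh replicate 3. At an unadjusted p under 0.05 the fit of all libraries had 5 of the 9.

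Among all other genes tested, those whose centred log2 values came closest to Atp2a2 over the 16 libraries were Myh6, Tbc1d4, Acacb, Egflam and Fyco1, by root mean square difference. The nearest, Myh6, the fast myosin heavy chain of the adult mouse ventricle, was at 0.0864 log2 units, with 45.0% of its Sham-Veh mean in TAC-Veh and 60.6% in TAC-THZ1. Closest to Pln were Gcdh, Asb14, Tnnt1, Bckdhb and Aldh2. Gcdh, a mitochondrial dehydrogenase of lysine breakdown, was at 0.053 log2 units, with 56.5% of its Sham-Veh mean in TAC-Veh and 89.4% in TAC-THZ1. Atp2a2 and Pln themselves were 0.307 log2 units apart, which put Pln at rank 347 for Atp2a2, and between Pln and Hrc it was 0.124, which put Hrc at rank 57 for Pln. These are descriptions over the same libraries, which share their depth and group structure.

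Beyond the 10 genes, 93 further calcium handling genes in 8 groups were found in the table, of which 89 passed the filter (Jph3, Rem2, Slc8a3 and Atp2b3 did not). With TAC 54 of the 89 were called, 24 higher and 30 lower, and with THZ1 in TAC 32, 15 higher and 17 lower. These are 60.7% and 36.0% of the 89, beside 45.0% and 29.4% of all genes, and the counts of single groups below are small and are to be read against the same shares. The median log2 change over the 89 was -0.04 with TAC and 0.03 with THZ1 in TAC. Scaled to cardiomyocyte markers the split became 34 higher and 14 lower with TAC, and 4 higher and 48 lower with THZ1 in TAC. Under that scaling all genes split in the same way, with 36.6% higher and 8.52% lower with TAC, and 2.58% higher and 49.8% lower with THZ1 in TAC. Each gene named below had the same sign under the 4 other scalings tried. In sham none of the 89 was called by limma (9 at an unadjusted p under 0.05) or by edgeR or DESeq2.

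**Figure D4:**
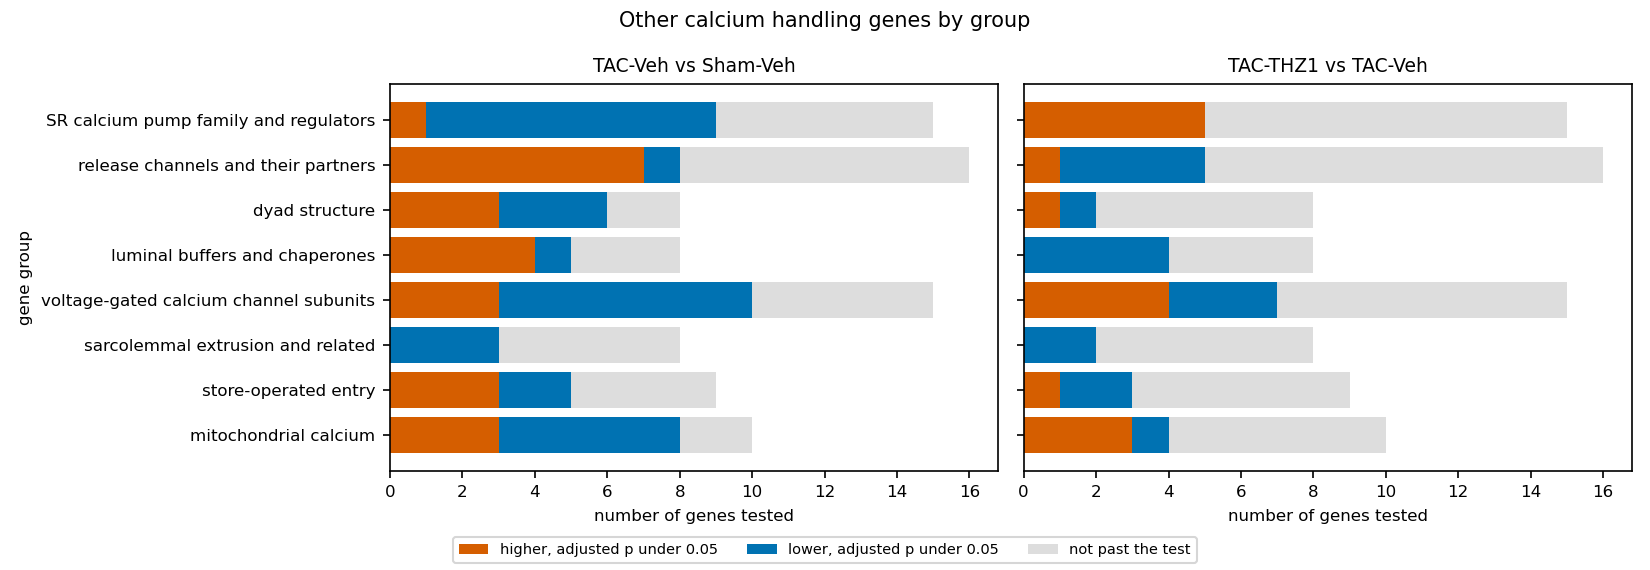
Number of genes tested in each of 8 groups of further calcium handling genes (horizontal axes), split by the limma call with TAC and with THZ1 in TAC, where 45.0% and 29.4% of all genes were called. Release channels and their partners has 7 genes higher and 1 lower with TAC, and pump regulators has 1 higher and 8 lower; scaled to cardiomyocyte markers these become 10 and 0, and 3 and 3.

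Among 15 relatives and regulators of the pump, 1 was higher and 8 were lower with TAC, and 5 were higher and none lower with THZ1 in TAC (3 and 3, and 1 and 5, under the cardiomyocyte marker scaling). Camk2a, a chain of the kinase that phosphorylates phospholamban, fell by 1.39 on the log2 scale with TAC (SE 0.17, adjusted p = 1.05e-05) and was higher by 0.83 with THZ1 in TAC (SE 0.17, adjusted p = 0.0023). Camk2b, another chain, fell by 0.93 with TAC (SE 0.27, adjusted p = 0.0117). Camk2d and Camk2g, further chains of this kinase, were tested in the same group and are not reported here. Ppp1r3a, which targets protein phosphatase 1 in striated muscle, fell by 0.80 with TAC (SE 0.13, adjusted p = 0.000106). Ppp1r1a, an inhibitor of that phosphatase, was higher by 0.65 with THZ1 in TAC (SE 0.21, adjusted p = 0.0301).

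Of 16 release channels and partners tested, 7 were higher, 1 was lower and 8 did not pass the test with TAC (10 higher and 0 lower under the cardiomyocyte marker scaling), with Ryr3, the minor ryanodine receptor, at 0.56 (SE 0.19, adjusted p = 0.0241). Sri (sorcin), at 0.51, and S100a1, at 0.50, both bind the release channel. With THZ1 in TAC 1 was higher and 4 were lower (0 and 13 under that scaling), among them Ryr3 at -0.73 (SE 0.19, adjusted p = 0.0086) and the inositol trisphosphate receptor Itpr2 at -0.52 (SE 0.12, adjusted p = 0.00395). Lumen buffers and chaperones showed 4 higher and 1 lower of 8 with TAC (5 and 0 under that scaling), led by Rcn3 at 1.23 (SE 0.14, adjusted p = 6e-06), Canx at -0.50 and Sdf4 at 0.47. With THZ1 in TAC 4 were lower and none higher (7 and 0), with Rcn3 at -0.81 and Calu at -0.44. Rcn3 and Calu belong to a family of calcium binding proteins of the secretory pathway that fibroblasts also make, and the fibroblast marker sums given above moved in the same directions. The part of fibroblasts in these changes was not tested.

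Among 15 voltage-gated channel subunits, 3 were higher and 7 lower with TAC (3 and 6 under the cardiomyocyte marker scaling), and 4 were higher and 3 lower with THZ1 in TAC (3 and 5). The T-type channel Cacna1h fell by 2.16 on the log2 scale with TAC (SE 0.23, adjusted p = 3.4e-06) and was higher by 1.497 with THZ1 in TAC (SE 0.23, adjusted p = 0.000343). Cacna1s, the L-type pore of skeletal muscle, fell by 1.09 and was higher by 0.83, and the auxiliary subunit Cacna2d2 fell by 1.18 with TAC. Of 8 dyad genes 3 were higher and 3 lower with TAC (4 and 3), with Sypl2 at 1.07, Speg at -0.84 and Jph1, the relative of Jph2, at -0.77. With THZ1 in TAC, Cmya5, which organizes the dyad, was at 0.50 and Bin1, which shapes the transverse tubules, at -0.45, the only 2 called of the 8 (0 and 4 under that scaling).

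Extrusion genes around Slc8a1 showed 3 lower and none higher of 8 with TAC (2 and 1 under the cardiomyocyte marker scaling). With THZ1 in TAC the plasma membrane calcium pumps Atp2b4, at -0.33, and Atp2b1, at -0.23, were lower (4 lower and none higher under that scaling). Of 9 store-operated entry genes 3 were higher and 2 lower with TAC (5 and 0), with the channel Orai2 at 1.22 and the sensor Stim2 at 0.33, and 1 was higher and 2 lower with THZ1 in TAC (0 and 6), with Orai2 at -1.37. Of 10 mitochondrial calcium genes 3 were higher and 5 lower with TAC (3 and 0 under that scaling). Mcub, the dominant negative subunit of the calcium uniporter, stood at 0.74 (SE 0.20, adjusted p = 0.00663) and its gatekeeper Micu2 at 0.41. The gene annotated as 2310061I04Rik, on chr17, was at -0.47. It was entered in this group as the uniporter regulator Smdt1, an identity that was not established here, so its values are not to be read as those of Smdt1. With THZ1 in TAC 2310061I04Rik was at 0.48 and Vdac1 at 0.36, and 3 of the group were higher and 1 lower (0 and 4 under that scaling).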

How the data were processed

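Ventricle RNA of 16 mice was sequenced from stranded mRNA libraries. Per the labels and the methods of the study, the authors aligned single-end reads to mm9 with TopHat2 2.1.1, counted reads per gene with HTSeq and divided each library's counts by a DESeq2 size factor. The values deposited by the authors are thus a signal, the count of a gene over the size factor of its library, for 22372 genes. Dividing by the smallest step of each library gave whole reads for 100% of values (within 0.01 reads), 21.4 to 35.8 M per library, with size factors of 0.749 to 1.40. Counting intervals and floors cover counting error only. Gene positions and exon lengths came from the GENCODE annotation of NCBIM37. Replicates were different mice, and replicate pairs differed by chi-square values of 2.97 to 93.5 per degree of freedom.

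Genes were tested with limma 3.58.1 (R 4.3.3) after a log2 transform with a pseudocount of 1, fitting the 4 group means in a single model of the 16 libraries, eBayes with a trend, and Benjamini-Hochberg adjustment over 13331 genes of at least 10 normalized counts in at least 4 libraries. Ratios were tested within pairs of groups by exact two-sided permutation over 70 splits. Alternatives were other pseudocounts, filters and scalings, fits of the compared groups alone, robust fits, array weights, the replicate block, leaving out each library, stricter thresholds, and edgeR 4.0.16 and DESeq2 1.42.0 on the recovered reads. The scaling to cardiomyocyte markers used 8 of 9 markers, since Tnnc1 was listed at 0. Scripts were tested on simulated data, and summaries and figures were made with NumPy 2.4.6, pandas 2.3.3 and Matplotlib 3.10.9 under Python 3.11.15. The 10 genes, the further calcium genes and the markers were chosen with earlier results of these data known. All 10 genes are named. From each further group the 3 called genes with the largest change with TAC and the 2 with THZ1 in TAC, of at least 20 normalized counts on average, are named, with those called in sham or in the interaction. Some genes that this rule selects are not reported here. For Atp2a2 and Pln the 5 nearest genes are named. No sequencing batch or date was given in the labels, so batches could not be compared.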

Additional observations from a re-analysis of the deposited data

Results flagged for a closer look

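Among the 4 TAC-THZ1 libraries, Slc8a1 in replicate 3 stood apart with 3951 normalized counts, at a gap of 0.880 of the range of its group. In 44 groups looked at, chance alone gives about 1 such value in 20.

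By the interaction term of limma, THZ1 changed TAC hearts differently from sham hearts for 2 of the 9 genes, Pln by 0.70 and Trdn by 0.38 (adjusted p = 0.0327 and 0.0445). Of the 89 further calcium genes 13 were called (14.6%, beside 10.0% of all genes), a count that was 10 with no filter and 3 to 19 without 1 library. The THZ1 effect was more positive in TAC for 7: Cacna1h by 1.23 (adjusted p = 0.0289), Camk2a by 0.86 (adjusted p = 0.0355), Cacnb2 by 0.79 (adjusted p = 0.0111), Cacna1s by 0.75 (adjusted p = 0.0284), Ppp1r3a by 0.71 (adjusted p = 0.0225), Cmya5 by 0.46 (adjusted p = 0.0323) and 2310061I04Rik by 0.42 (adjusted p = 0.0431). It was more negative for 6: Orai2 at -1.34 (adjusted p = 0.0475), Ryr3 at -1.04 (adjusted p = 0.0241), the channel subunit Cacnb3 at -0.89 (adjusted p = 0.0119), Rcn3 at -0.77 (adjusted p = 0.0261), Itpr2 at -0.58 (adjusted p = 0.0367) and Calu at -0.38 (adjusted p = 0.0383). Scaled to cardiomyocyte markers, 2 of the 89 were called more positive and 24 more negative. All 13331 genes split in the same way there, with 129 more positive and 3137 more negative.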

How the results depend on the processing

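Over the alternatives, 1242 of 1341 gene values stayed on their side of the threshold, 36 passed it in addition and 61 no longer passed it. The sign changed in 25, of which 23 passed the threshold in neither fit, and 2 were called in the fit of the report, both with THZ1 in TAC under the cardiomyocyte marker scaling (Cacna1c at -0.13, Trdn at -0.10). Depth did not limit the 9 genes tested, and limited Sln. For the 9 genes, absolute log2 fold thresholds of 1 with TAC and 0.89 with THZ1 in TAC, whose sizes follow the study but which were applied here in both directions, left 2 calls with TAC and 0 with THZ1 in TAC. With THZ1 in TAC, 4 were called under the cardiomyocyte marker scaling, 4 with array weights, 0 with only the groups compared, 3 at an adjusted p under 0.01 and 3 to 8 without 1 replicate. In sham, 2 were called with only the groups compared and 1 with array weights. For TAC under THZ1, 5 were called after quantile normalization, 6 under the cardiomyocyte marker scaling, 5 with only the groups compared, 7 with array weights and 3 to 5 without 1 replicate. For the interaction, 0 were called with no filter, under the cardiomyocyte marker scaling or at an adjusted p under 0.01, 1 with robust eBayes, 3 with array weights, 3 with DESeq2, and 0 to 4 without 1 replicate. Apart from the settings that use fewer libraries or a stricter threshold, the cause was not tested.

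For the 89 further genes, the same fold thresholds left 11 with TAC and 3 with THZ1 in TAC. With THZ1 in TAC the count was 52 under the cardiomyocyte marker scaling, 9 with only the groups compared, 15 with array weights, 15 at an adjusted p under 0.01, and 19 to 39 without 1 replicate (19 without TAC-THZ1 replicate 2). In sham it was 6 with only the groups compared and 4 with array weights. For TAC under THZ1 it was 11 at an adjusted p under 0.01 and 18 to 32 without 1 replicate (18 without Sham-THZ1 replicate 4 or TAC-THZ1 replicate 3). For the interaction it was 26 under the cardiomyocyte marker scaling, 0 at an adjusted p under 0.01, and 3 to 19 without 1 replicate.

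Libraries that share a replicate number were not seen to deviate together (correlation of deviations -0.43 to 0.16, median 0.021, against -0.23 to 0.31 for other pairs). No pairing by number was thus detected, which with 4 libraries per group does not show that there was none. With the replicate block, 7, 7, 0, 3 and 0 of the 9 genes were called in the 4 contrasts and the interaction, and 54, 29, 0, 28 and 10 of the 89. For the ratios, a replicate block of 4 pairs allows no exact p under 0.125, which was reached for Pln/Atp2a2 with TAC (0.43) and with TAC under THZ1 (0.65), and for Slc8a1/Atp2a2 with TAC (1.04), in sham (-0.21) and with TAC under THZ1 (0.58). Without 1 replicate, Pln/Atp2a2 ranged from 0.33 to 0.56 with TAC and from -0.13 to -0.081 in sham, where it passed the test without Sham-THZ1 replicate 4 (exact permutation p = 0.0286), and Slc8a1/Atp2a2 from -0.25 to -0.16 in sham and from 0.38 to 0.71 with TAC under THZ1.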
